A study of Mus musculus with 7 samples.

Results

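The hexosamine biosynthetic pathway turns fructose-6-phosphate, an intermediate of glucose breakdown, and glutamine into UDP-N-acetylglucosamine (UDP-GlcNAc), the donor sugar for protein and lipid glycosylation. Gfpt1 and Gfpt2 catalyse the committed amidotransferase step, and Gnpnat1, Pgm3 and Uap1 carry the product on to UDP-GlcNAc. A single enzyme, Ogt, then attaches GlcNAc to serine and threonine residues of nuclear and cytoplasmic proteins, and Oga takes it off again. Because the pathway draws on glucose, glutamine, acetyl-CoA and UTP, O-GlcNAc is often described as a nutrient-dependent modification, and increased flux through it has long been studied in diabetic pregnancy.

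The probe sets examined here were all those that the array annotation assigns to Ogt, Oga (formerly Mgea5), Gfpt1, Gfpt2, Gnpnat1, Pgm3 or Uap1. There were 21 such probe sets, for 6 of the 7 genes, among 22690 probe sets and 12394 singly named genes on the array. Pgm3, the phosphoglucomutase of the pathway, was not assigned a probe set, and its expression was not analysed here. The number of probe sets was 5 for Ogt, 5 for Oga, 5 for Uap1, 3 for Gnpnat1, 2 for Gfpt1 and 1 for Gfpt2. A probe set was tested if its signal reached the 40th percentile of its array in at least 2 of the 7 arrays. This left 15 of the 21, each of which reached that level in all 7, and 14554 of the whole array.

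RNA of single whole FVB mouse embryos at embryonic day 10.5 was hybridized to 7 Affymetrix 430A 2.0 arrays. The 5 diabetes-exposed embryos, 3 without and 2 with a neural tube defect (NTD), developed in 1 female made diabetic with streptozotocin, a toxin of pancreatic beta cells, at 7-9 weeks of age and with blood glucose above 250 mg/dl. The 2 control embryos came from 1 untreated female of the same strain, and all embryos were genetically unmodified. Diabetes and litter therefore cannot be told apart, and the p-values measure only the spread between embryos within these litters. In RNA of whole embryos, fewer cells of a type and less RNA per cell cannot be told apart either.

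The array medians of the signal lay between 206 and 218. Exposed embryo 1 without NTD stood apart, with the highest signal of 11 of 12 yolk sac and liver markers, each over 3 times the next embryo, and leaving it out changed no call among the hexosamine probe sets. Markers of neural tube, heart and somites were present, with 7 of 8, 7 of 7 and 7 of 8 above the filter. Of the 7 heart markers, 1 had a log2 fold change below 0, and none was called. The summed signal of the heart markers was 9375 to 11249 in exposed embryos and 8533 and 8813 in controls. Of the 7 tested neural markers, 6 had a log2 fold change below 0, against 49.9% of all tested probe sets. All exposed embryos were below both controls in 2, Fabp7 (-0.85) and Dcx (-0.77), against 13.4% of all tested probe sets. Sox2 and Tubb3 had -0.16 and -0.24, and Nes, Neurod1 and Pax6 had -0.00026, -0.02 and 0.02. The summed signal of the 7 was 6931 to 8332 in exposed embryos and 9157 to 9342 in controls. Dcx, a microtubule protein of young neurons, was called lower in 1 of its probe sets. Of 4 decidual and trophoblast markers with a probe set, Dcn, which mesenchyme also expresses, passed the filter at 320 to 646 in exposed embryos and 330.0 and 356 in controls. Prl8a2, Tpbpa and Psg17 did not pass, although Prl8a2 was at 391 in exposed embryo 1 without NTD. Markers of red blood cells moved with exposure: 6 of 6 tested had all exposed embryos above both controls, against 11.4% of all tested probe sets. Their summed signal was 64485 to 83689 in exposed embryos and 52066 to 54326 in controls, although none was called. Exposed embryo 2 with NTD and both controls had the Y-linked transcript Eif2s3y at 203 to 245 and Xist, the RNA that coats an inactive X, at 165 to 256. In the other 4 exposed embryos Eif2s3y was at 0.549 to 2.76 and Xist at 6074 to 7533. The part of these differences in the values of the hexosamine genes was not tested. Both controls had low Xist and 4 of the exposed embryos had high Xist, so Xist signal and exposure largely coincide here. Exposed embryo 2 with NTD was the 1 exposed embryo of low Xist signal, too few to tell them apart. For Ogt, the embryos of low Xist signal are set side by side below as a description.

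Among the tested probe sets, those of Gfpt1 and Oga and 3 of the 5 of Ogt had lower means in exposed than in control embryos, while Gfpt2 and Ogt 1436780_at were higher in every exposed embryo. None of the 15 tested probe sets passed the threshold of 0.05 (limma adjusted p 0.0619 to 0.996). The background was also low, with 25 of 14554 probe sets called (0.172%). At an unadjusted p under 0.05 there were 5 of 15 (33.3%), 1 higher and 4 lower in exposed embryos, against 16.2% of all tested probe sets. This count was 3 without control embryo 1, 2 without control embryo 2 and 7 without exposed embryo 1 without NTD. The signals of all 5 exposed embryos lay below both controls in 7 probe sets (46.7%, against 13.4% of all tested) and above both in 2 (against 11.4%), and overlapped the controls in 6. The fitted log2 fold change was below 0 in 12 of 15 (80.0%, against 49.9% of all tested), or in 11 after quantile normalization or median centring. The median log2 fold change was -0.33, against 0.00033 over all tested probe sets. Probe sets of 1 gene are not independent, since 9 of the 15 read Ogt or Oga.

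**Figure D1:**
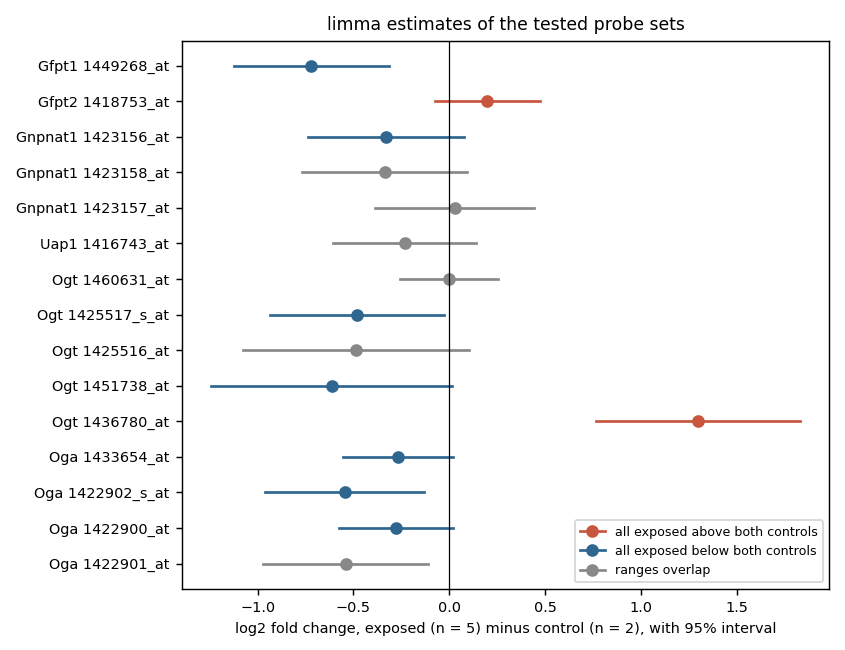
Fitted log2 fold changes of the 15 tested probe sets, exposed (n = 5) minus control embryos (n = 2), with 95% confidence intervals from limma; colours mark probe sets whose exposed embryos all lay above or all below both controls, or overlapped them. The estimates run from -0.72 for Gfpt1 to 1.30 for Ogt 1436780_at, and the others sit between -0.61 and 0.20.

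The pathway begins with the amidotransferases, whose signals lay on opposite sides of the controls. Their promoters are shown because these were the isozymes of the committed step that separated in opposite directions, Gfpt1 below and Gfpt2 above the controls. The 250 bases before each gene start are from RefSeq, build GRCm38.p6, plus strand of chr6:87042596-87042845 for Gfpt1 and chr11:49793905-49794154 for Gfpt2, with matches on either strand to ACGTG, the core of the hypoxia response element (CACGT where it is on the minus strand), and to CCAAT, which reads ATTGG when on the minus strand, in capitals:
Gfpt1: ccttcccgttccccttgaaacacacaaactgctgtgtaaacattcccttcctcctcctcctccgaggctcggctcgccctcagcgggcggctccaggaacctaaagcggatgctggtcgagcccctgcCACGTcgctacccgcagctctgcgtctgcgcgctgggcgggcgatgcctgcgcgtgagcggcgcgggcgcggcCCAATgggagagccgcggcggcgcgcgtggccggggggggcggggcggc
Gfpt2: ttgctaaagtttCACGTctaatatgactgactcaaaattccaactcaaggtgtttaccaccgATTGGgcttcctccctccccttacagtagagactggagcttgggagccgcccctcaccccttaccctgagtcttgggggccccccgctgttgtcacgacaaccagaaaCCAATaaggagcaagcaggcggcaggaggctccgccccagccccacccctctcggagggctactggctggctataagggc
The Gfpt1 stretch is 72.0% G and C and the Gfpt2 stretch 57.6%. Counted from the gene start, the ACGTG match begins at -122 in Gfpt1 and at -238 in Gfpt2, CCAAT at -49 in Gfpt1, and at -188 and -80 in Gfpt2. Over windows of 300 bases, which add 50 after the start, ACGTG occurs in 4 of the 6 genes with a RefSeq window (Gfpt1, Gfpt2, Pgm3 and Uap1) and in 19.6% of 32851 windows of the same length, and CCAAT in the same 4 genes and in 37.4% of windows. Neither is in the windows of Ogt or Oga. CACGTG (the E-box, 7.15% of windows, itself holding ACGTG), TGACGTGG (an XBP1 element that also holds ACGTG, 0.676%), TGATGNAAN (an ATF4 element, 3.95%) and TGACNNNGC (an antioxidant element, 12.4%), each searched on both strands, were in no window of the 6 genes.

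Gfpt1, on chromosome 6 (87042846 to 87092207), encodes the broadly expressed amidotransferase that limits the rate of the pathway. Its tested probe set, 1449268_at, had signals of 160.2, 183 and 160.3 in exposed embryos without NTD and of 143 and 152 in exposed embryos with NTD, against 258 and 266 in controls. No exposed embryo came near the controls, and the embryos with NTD had the lowest signals. The exposed signals were not far above the filter level, the 40th percentile, which was 135.5 to 146.4 on the exposed arrays. The mean was 159.7 ± 15.1 (SD, n = 5) in exposed and 262 ± 5.72 (SD, n = 2) in control embryos, 1.64 times as high in controls. The log2 fold change was -0.72 (standard error 0.18, 95% interval -1.13 to -0.32), with an unadjusted p of 0.00246 that did not pass over all probe sets (limma adjusted p = 0.109). A two-sided exact permutation test of the 7 embryos gave p = 0.048, the smallest that 21 splits allow. The probe set passed with array quality weights (limma adjusted p = 0.0356, log2 fold change -0.74) and with the Cyber-T test (Cyber-T adjusted p = 0.0169). Its limma adjusted p was 0.111 to 0.592 when 1 embryo was left out. The other Gfpt1 probe set, 1418904_at, was dim, at 28.7 to 58.9 in exposed embryos and at 13.9 and 46.3 in controls, and was not tested.

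Gfpt2, on chromosome 11 (49794155 to 49838620), is the second amidotransferase, with a narrower tissue distribution. Signals of 1418753_at were 429, 452 and 429.9 in exposed embryos without NTD and 461 and 452 in those with NTD, against 375 and 399 in controls. All exposed embryos were above both controls, by a small margin: 445 ± 14.5 (SD, n = 5) in exposed and 387 ± 16.9 (SD, n = 2) in control embryos, a ratio of 1.15. The log2 fold change of 0.20 (standard error 0.12, interval -0.08 to 0.48) did not pass (limma adjusted p = 0.455). The exact permutation p was 0.048, the smallest that 21 splits allow. Among the tested probe sets, only those of Gfpt1 and Gfpt2 and Ogt 1436780_at had this value. In the others the same test gave 0.095 (as in Oga 1433654_at) to 0.952 (Ogt 1460631_at). Other probe sets with all exposed embryos below both controls were at 0.095 to 0.190 (the highest including Ogt 1451738_at).

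Gnpnat1, on chromosome 14 (45376421 to 45388987), adds the acetyl group to glucosamine-6-phosphate, and its 3 probe sets did not move together. Signals of 1423156_at were 344, 416 and 253 in exposed embryos without NTD and 364 and 356 in those with NTD, against 440.2 and 420.3 in controls. All exposed embryos were below both controls, but exposed embryo 2 without NTD only just so, and the log2 fold change was -0.33 (standard error 0.18, limma adjusted p = 0.403). Signals of 1423158_at were 252, 293 and 258 in exposed embryos without NTD and 357 and 392 in those with NTD, against 375 and 396 in controls. Here the embryos without NTD were low, while those with NTD overlapped the controls. The third probe set, 1423157_at, was at 156 to 190.0 in exposed embryos and at 163 and 169 in controls, with a log2 fold change of 0.03 that turned to -0.01 when exposed embryo 3 without NTD was left out. Over the 7 embryos it ran against the other Gnpnat1 probe sets (Pearson's r of the log2 signals -0.67 and -0.74), while those correlated at 0.62.

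Uap1, on chromosome 1 (170141223 to 170174964), joins the sugar phosphate to UTP and so makes UDP-GlcNAc. Signals of 1416743_at were 269, 393 and 289.9 in exposed embryos without NTD and 327 and 296 in those with NTD, against 369 and 365 in controls. Exposed embryo 2 without NTD was the highest of all, and the other 4 exposed embryos were below both controls. The means of 315 ± 48.5 (SD, n = 5) in exposed and 367 ± 2.84 (SD, n = 2) in control embryos gave a log2 fold change of -0.23 (standard error 0.17, interval -0.61 to 0.14, limma adjusted p = 0.526). Its other 4 probe sets were below the filter on low signals, at 1.74 to 104 over all 7 embryos.

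**Figure D2:**
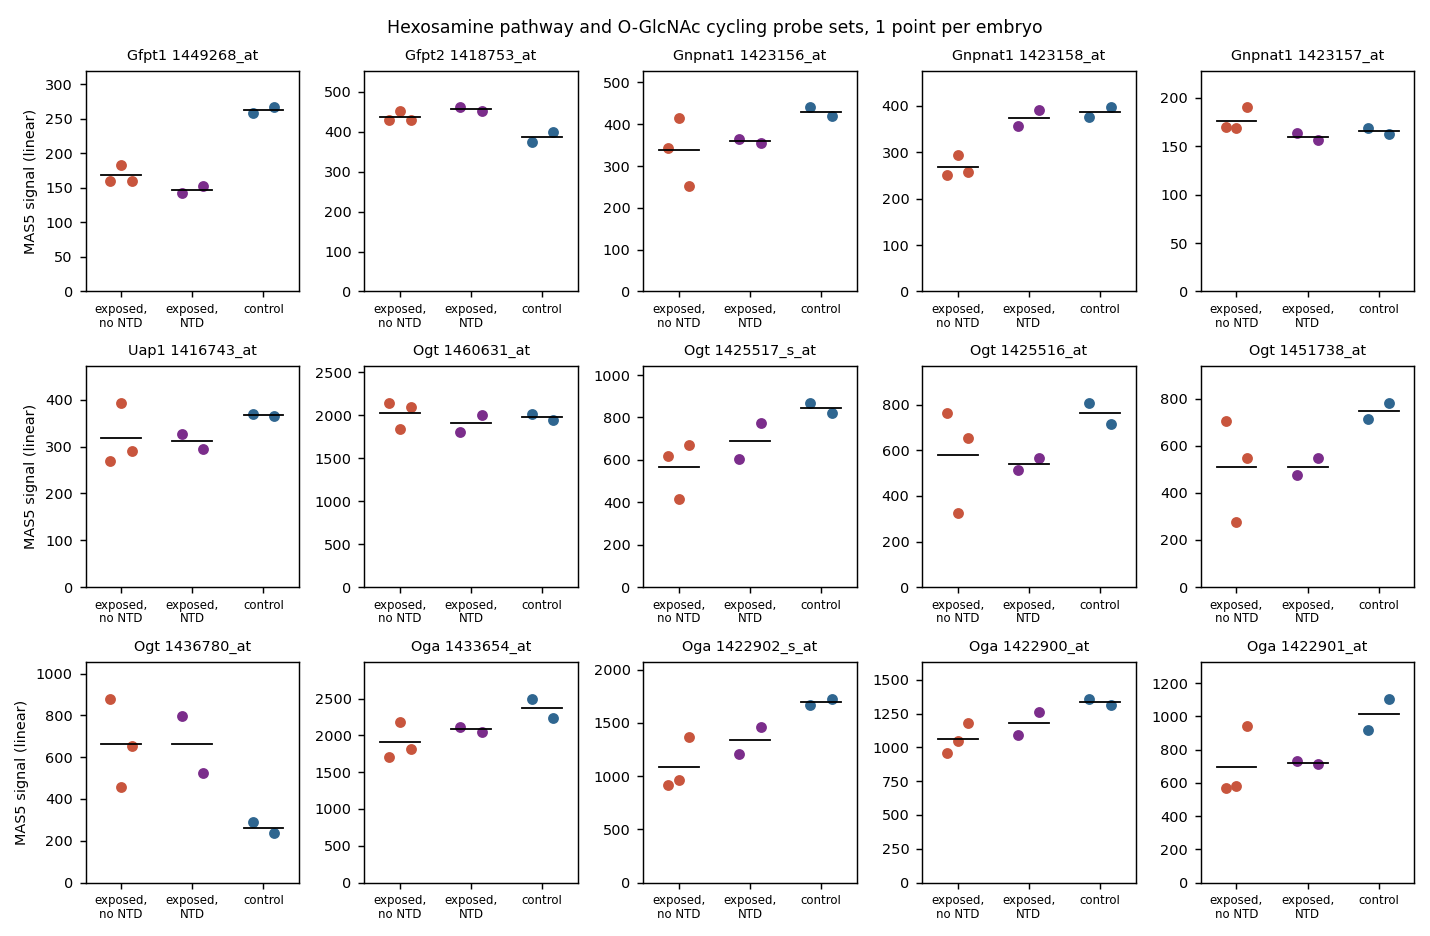
MAS5 signals (linear scale from 0) of the 15 tested probe sets, 1 point per embryo, with bars at the group means: exposed embryos without NTD (n = 3), exposed embryos with NTD (n = 2) and controls (n = 2). Gfpt1 1449268_at lies at 143 to 183 in exposed embryos and at 258 and 266 in controls, Gnpnat1 1423158_at separates the embryos without NTD from the rest, and Ogt 1436780_at is above both controls in all exposed embryos.

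Ogt, on the X chromosome (101640011 to 101684351), gave the 1 probe set with a large difference in the opposite direction. Signals of 1436780_at, the Ogt probe set in the study's own gene list, were 880.4, 455 and 653 in exposed embryos without NTD and 797 and 525 in those with NTD, against 288 and 237 in controls. Every exposed embryo was above both controls, and the spread among exposed embryos was wide, 662 ± 179 (SD, n = 5) against 263 ± 35.8 (SD, n = 2) in controls, a ratio of 2.52. The log2 fold change was 1.30 (standard error 0.24, interval 0.76 to 1.83), with an unadjusted p of 0.000247, an adjusted p just above the threshold (limma adjusted p = 0.0619) and an exact permutation p of 0.048. It passed when exposed embryo 2 without NTD was left out (limma adjusted p = 0.0454) and with array quality weights (0.0162). It also passed with the Cyber-T test (Cyber-T adjusted p = 0.000176), where 1374 of all probe sets passed. The limma adjusted p was 0.0584 to 0.386 when any other single embryo was left out. The 3 embryos of low Xist signal had 525 in exposed embryo 2 with NTD, against 288 and 237 in controls. The lowest of the exposed embryos, at 455, was one of high Xist signal. With 1 exposed embryo of low Xist signal, the part of Xist signal in the difference of 1436780_at was not tested. The study's quantitative RT-PCR, in embryos of other pregnancies, found Ogt lower with diabetes exposure. The paper traced this mismatch with the array to alternative splicing.

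The other 4 Ogt probe sets did not share the difference of 1436780_at. In 1460631_at, signals were 2143, 1839 and 2099.7 in exposed embryos without NTD and 1809 and 2002 in those with NTD, against 2010.2 and 1944 in controls. The groups overlapped throughout, with means of 1979 ± 151 (SD, n = 5) in exposed and 1977 ± 46.7 (SD, n = 2) in control embryos and a log2 fold change of -0.0021. Its interval of -0.26 to 0.26 lies below that of 1436780_at.

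In 1425517_s_at, signals were 619.9, 417 and 668 in exposed embryos without NTD and 604 and 776 in those with NTD, against 868 and 821 in controls, all exposed embryos being lower (log2 fold change -0.48, standard error 0.21, limma adjusted p = 0.287). In 1451738_at they were 706, 276 and 549 in exposed embryos without NTD and 476 and 547 in those with NTD, against 715 and 781 in controls, also all lower (-0.61, standard error 0.28, limma adjusted p = 0.320). In 1425516_at, at 325 to 765 in exposed embryos and 718 and 809 in controls, the groups overlapped (-0.49, standard error 0.27, limma adjusted p = 0.394). Exposed embryo 2 without NTD had the lowest signal in each of these 3, and in 1436780_at the lowest among exposed embryos.

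Unequal change within the gene was measured directly as the log2 signal of 1436780_at minus the mean log2 signal of the other 4 Ogt probe sets in the same embryo, so that only its difference between groups is read. It was -0.06, -0.17 and -0.37 in exposed embryos without NTD and 0.15 and -0.66 in those with NTD, against -1.80 and -2.04 in controls. The groups were well separated, with -0.22 ± 0.31 (SD, n = 5) in exposed and -1.92 ± 0.17 (SD, n = 2) in control embryos. The difference of 1.69 had a two-sided exact permutation p of 0.048, the smallest possible. This discordance within Ogt was known from earlier results of these data before the test was chosen. The probe set was also taken from the study's gene list, which was filtered by fold change in these same embryos. The permutation p is therefore no independent support for the difference. Over the 7 embryos, the log2 signals of 1425516_at and 1451738_at correlated at r = 0.97 and those of 1425517_s_at with them at 0.84 and 0.87, while 1436780_at correlated with the other 4 at -0.45 to 0.17. These correlations hold both the group difference and the embryo-to-embryo spread. Where on the Ogt transcripts the probe sets lie was not analysed here.

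**Figure D3:**
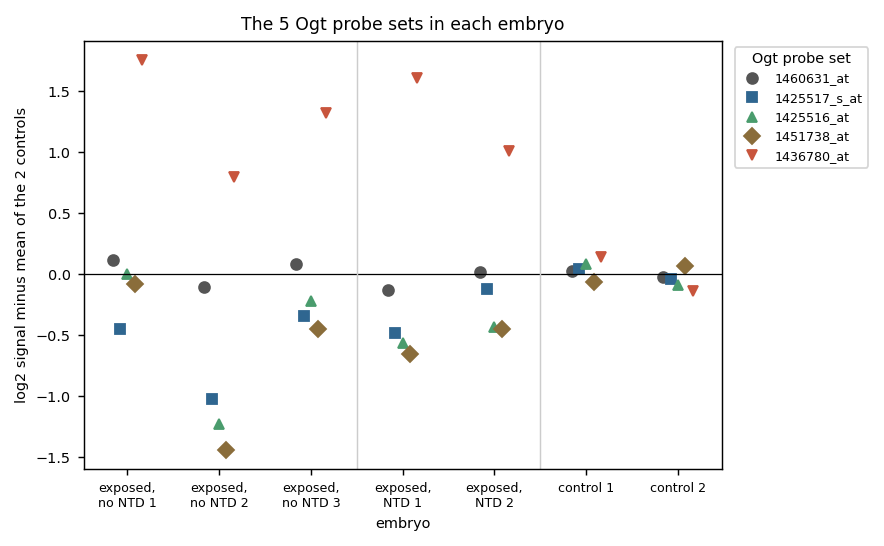
Log2 signal of the 5 Ogt probe sets in each embryo relative to the mean of the 2 controls for the same probe set, with exposed embryos without NTD, exposed embryos with NTD and controls in order. 1436780_at is above the other 4 in every exposed embryo, 1460631_at stays near 0, and exposed embryo 2 without NTD has the lowest values of 1425517_s_at, 1425516_at and 1451738_at.

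Oga, on chromosome 19 (45750255 to 45783644), removes O-GlcNAc, and its 4 tested probe sets all had lower means in exposed than in control embryos. In 1422902_s_at, signals were 913, 967 and 1367 in exposed embryos without NTD and 1205 and 1463 in those with NTD, against 1668 and 1728 in controls. All exposed embryos were below both controls, with means of 1183 ± 241 (SD, n = 5) in exposed and 1698 ± 42.7 (SD, n = 2) in control embryos the log2 fold change being -0.55 (standard error 0.19, unadjusted p = 0.0144, limma adjusted p = 0.195). In 1433654_at they were 1711, 2187 and 1820.4 in exposed embryos without NTD and 2118 and 2048 in those with NTD, against 2499.9 and 2242 in controls, again all lower (-0.27, standard error 0.13, limma adjusted p = 0.345).

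The probe set 1422900_at, at 958 to 1262 in exposed embryos and 1361 and 1314 in controls, did not overlap, with a fitted difference of -0.28 on the log2 scale (standard error 0.13, limma adjusted p = 0.339). In 1422901_at, exposed embryo 3 without NTD, at 943, lay between the controls at 921 and 1108, the other 4 exposed embryos were at 570.4 to 729, and the log2 fold change was -0.54 (standard error 0.19, unadjusted p = 0.0188, limma adjusted p = 0.217). All 4 tended to vary together over the 7 embryos, with r of 0.40 to 0.98 between pairs. The fifth probe set, 1439081_at, was below the filter, at 92.6 to 185 in exposed embryos and no higher than 107 in controls.

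Exposed embryos with NTD were then compared with exposed embryos without NTD. Exposed embryo 2 with NTD had low Xist signal, while all the other exposed embryos had high Xist signal. The part of Xist signal in this contrast was not tested. No probe set of the whole array was called (0% of 14554, limma adjusted p), and 1 of the 15 had an unadjusted p under 0.05, against 3.02% of all tested. This was Gnpnat1 1423158_at, with a log2 fold change of 0.49 in embryos with NTD relative to those without (standard error 0.16, interval 0.12 to 0.85, unadjusted p = 0.0135, limma adjusted p = 0.999). The other Gnpnat1 probe sets gave 0.12 and -0.14. For Gfpt1 1449268_at the difference was -0.19 (interval -0.64 to 0.27), and for Ogt 1436780_at it was 0.02 (interval -0.60 to 0.64), an interval that leaves room for a sizeable difference either way.

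Set against the same control embryos, each exposed group had 0 of the 15 called, where 0.295% of all tested probe sets were called in embryos without NTD and 0% in embryos with NTD. At an unadjusted p under 0.05, embryos with NTD had 2 of 15, against 7.7% of all tested probe sets, and embryos without NTD had 7, against 16.9%. Gfpt1 1449268_at had a log2 fold change of -0.83 in embryos with NTD and -0.65 in embryos without, Ogt 1436780_at 1.31 in embryos with NTD and 1.29 in those without, and Oga 1422902_s_at -0.35 in embryos with NTD and -0.67 in those without. Gnpnat1 1423158_at had -0.05 in embryos with NTD and -0.53 in embryos without NTD.

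For each gene, the probe sets of other genes whose log2 signals tracked it most closely over the 7 embryos were Slf1 (r = 0.99), Scaf4 (0.97) and Tnc (0.97) for Gfpt1, Hes7 (0.99), Uqcrq (0.98) and Myl12a (0.97) for Gfpt2, and Fgfr3, Copb2 and Nrcam (each 0.98) for Gnpnat1 1423156_at. For Uap1 they were Prkx, Snx5 and Laptm4b (each 0.98), for Oga 1433654_at Scoc (0.99), Dnttip2 and Dctn6 (0.98), and for Ogt 1460631_at Tmem131 (0.99), Tlk2 and Mrps23 (0.98). For Ogt 1436780_at they were Gdap10 (0.98), Jak3 (0.97) and G6pc3 (0.97). They were the closest of 14554 probe sets and are given as a description. Among these 21 matches Hes7, a segmentation clock repressor, was the 1 called by limma between exposed and control embryos (log2 fold change 2.48, adjusted p = 0.0329).

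Genes around the pathway were described by 8 further lists with 84 genes tested, taking the probe set of highest mean signal for each gene in medians and ranges. Of all tested probe sets, taken singly, 0.172% were called, a share that is not in the same unit as a count of genes. Of the 84 genes, 2 were called, where a gene counted if any of its probe sets passed. Both were higher in exposed embryos, and both supply or use the sugar phosphates from which the pathway branches. The glucose transporter Slc2a1 had signals of 2115, 2351 and 1795 in exposed embryos without NTD and 1912 and 2133 in those with NTD, against 1087 and 927 in controls, in probe set 1426599_a_at. Its log2 fold change there was 1.03 (standard error 0.14, limma adjusted p = 0.0279), with 1.08 (limma adjusted p = 0.0538) and 0.60 (0.261) in its other probe sets. By quantitative RT-PCR in embryos of other pregnancies, the study found Slc2a1 lower with exposure. The paper traced this mismatch to untranslated regions of different length, so that the array probe would miss some transcripts. Pfkl, the liver-type phosphofructokinase that draws fructose-6-phosphate into glycolysis, had 4534, 3391 and 4228 in exposed embryos without NTD and 3327 and 4297 in those with NTD, against 2098 and 1824 in controls, in probe set 1439148_a_at (log2 fold change 1.00, standard error 0.15, limma adjusted p = 0.0329). The other Pfkl probe set, 1450269_a_at, had 0.68 (limma adjusted p = 0.103). Without control embryo 1, control embryo 2 or exposed embryo 2 with NTD, none of the 84 was called, and without exposed embryo 3 without NTD 1 was.

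The list named precursor supply to fructose-6-phosphate held Slc2a1, Slc2a3, Hk1, Hk2, Pfkl, Pfkm and Pfkp. Of these, Pfkl, Pfkm and Pfkp are phosphofructokinases, which use fructose-6-phosphate, so the list mixes supply and use. The median log2 fold change was 0.60, and none of the 7 was below 0, against 49.9% of all tested probe sets. In 6, all exposed embryos were above both controls, against 11.4% of all tested probe sets. The hexosamine list itself, taken the same way with 1 probe set for each of 6 genes, had a median of -0.25, with 5 below 0. In 3, all exposed embryos were below both controls, against 13.4% of all tested probe sets. The difference between the lists was not tested.

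Amino acid genes of the glutamine list had a median of 0.17 over 9 genes, none called. Asns, asparagine synthetase, had 0.59 (limma adjusted p = 0.300), and the amino acid transporters Slc7a5 and Slc1a5 had 0.48 and 0.43. The 12 genes of amino sugar salvage and UDP-sugar exchange had a median of 0.06. Among them were Renbp, which interconverts GlcNAc and N-acetylmannosamine, at 0.72, and the sialic acid synthesis enzymes Gne, at 0.34, and Nans, at 0.63 and 0.02 in its 2 probe sets.

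Lists drawn around the uses of UDP-GlcNAc had medians close to that of all tested probe sets. These lists also hold genes that do not themselves use UDP-GlcNAc. The median was 0.10 for 15 genes of N-glycan assembly and branching, 0.0033 for 12 other users such as hyaluronan, heparan sulfate and GPI-anchor synthesis, and -0.09 for 5 transporters of UDP-GlcNAc and related sugars, with no gene called in any. The UDP-galactose transporter Slc35a2 was at 0.54 (unadjusted p = 0.0449, limma adjusted p = 0.300, all exposed embryos above both controls in that probe set) and 0.38, the CMP-sialic acid transporter Slc35a1 at -0.40 (unadjusted p = 0.0129, limma adjusted p = 0.190, all below) and -0.13, and Pigq, of GPI-anchor synthesis, at 0.38 (unadjusted p = 0.0217, limma adjusted p = 0.230, all above) and at -0.18 to 0.45 in its other probe sets. The 13 tested partners and substrates of Ogt had a median of 0.07 and none called. All exposed embryos were below both controls in 3 of the 13, against 13.4% of all tested probe sets. Tet1, a methylcytosine dioxygenase that binds Ogt, had -0.50 (limma adjusted p = 0.275), and Sp1, a long-known O-GlcNAc protein, had -0.60 in 1 probe set and 0.24 in the other. The 12 targets of ER stress and of ATF4 and XBP1, factors that can induce Gfpt1, had a median of 0.11, none called, and Xbp1 itself had -0.37, -0.28, -0.29 and 0.49 in its 4 probe sets.

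**Figure D4:**
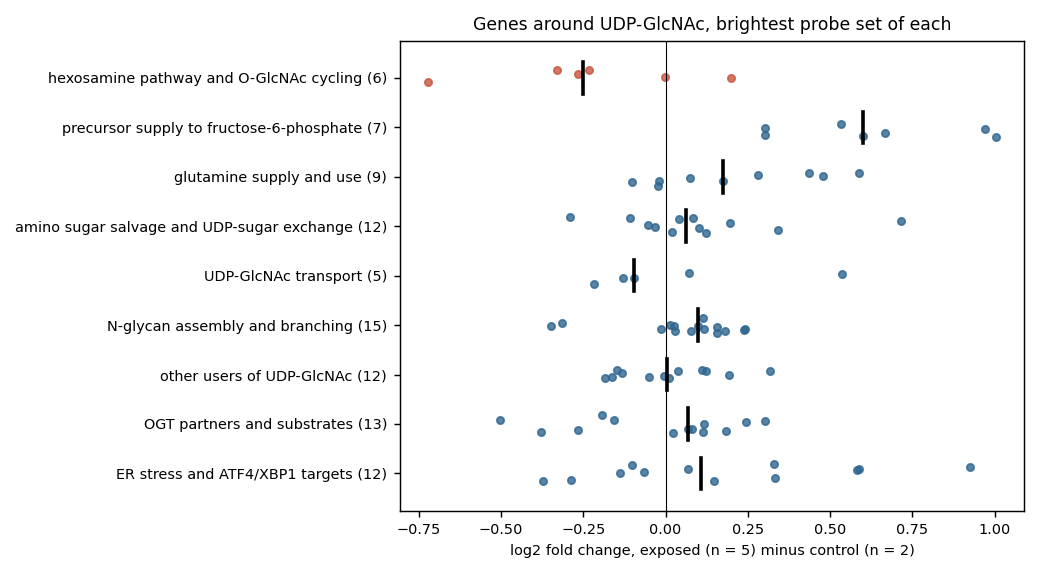
Log2 fold changes, exposed (n = 5) minus control embryos (n = 2), of the hexosamine genes and of 8 related lists, 1 point per gene from its probe set of highest mean signal, with a bar at each median and the number of genes in brackets. The hexosamine genes have a median of -0.25, and the medians of the other 7 lists lie between -0.09 and 0.17. The list named precursor supply, which also holds phosphofructokinases that use fructose-6-phosphate, has a median of 0.60.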

How the data were processed

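One-colour arrays were read from the table of deposited intensity values, which the authors computed as MAS5 signals (of a version not given in the sources used here), then scaled on each array to a mean, trimmed of 2% at each end, of 500.2. Values below 1 were set to 1 and log2 was taken. Gene symbols came from the array annotation (20393 probe sets with 1 symbol, 691 with several, 1606 with none), and 64 control probe sets were set aside. The 5 exposed and 2 control embryos were compared with limma 3.58.1 (R 4.3.3, trend on signal), with Benjamini-Hochberg adjustment over all 14554 tested probe sets and a threshold of 0.05. A fit of 3 groups served to set exposed embryos with NTD against those without. Single values were tested by exact permutation (absolute difference of means). The number of arrays limits the precision. On simulated data for the exposed against control comparison (14554 probe sets), limma called 63 of 100 changed by 1 on the log2 scale and 91 of 100 changed by 2. The genes and lists were chosen with earlier results of these data known. Named were all probe sets of the hexosamine genes, up to 3 genes of smallest p from each list, and the 3 closest patterns of each gene. Promoters were searched in RefSeq windows (GRCm38.p6).
Alternatives were quantile normalization, median centring, a floor of 16, an offset of 50, other filters, no trend, array quality weights, other groupings, a replicate block, each embryo left out, Welch's test as the methods' t-test, and a Cyber-T test (window of 101, confidence of 10). Replicate numbers were not used as pairs. Tables and figures were made in Python 3.11.15 with Matplotlib 3.10.9, SciPy 1.17.1, NumPy 2.4.6 and pandas 2.3.3.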

Additional observations from a re-analysis of the deposited data

How the results depend on the processing

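The absence of calls among the 15 hexosamine and O-GlcNAc probe sets between exposed and control embryos held in 17 of 20 alternatives. It was 2 with array quality weights, where 491 of all probe sets passed, and 6 with the Cyber-T test, where 1374 did. Leaving out 1 embryo gave 0 to 1, the 1 being Ogt 1436780_at without exposed embryo 2 without NTD. The 5 at an unadjusted p under 0.05 became 8 with weights, 11 with Cyber-T and 2 to 7 with 1 embryo left out, and 4 to 6 otherwise. The 2 called genes of the related lists became 1 without a filter, 0 without a trend and 0 to 3 with 1 embryo left out. Between exposed embryos with and without NTD there were 0 calls in all 14 alternatives. The Ogt difference of 1.69 was 1.58 to 1.81 with 1 embryo left out and 1.72 without the embryos with NTD, splits too few to give a p under 0.05, and 1.52 with the offset, its lowest value in the 11 alternatives.

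The fold change of Ogt 1460631_at, near 0, changed sign with quantile normalization (0.00080), median centring (0.0013), without the embryos with NTD (0.033), and without control 1 (0.022), exposed embryo 1 with NTD (0.029) or exposed embryo 2 without NTD (0.024), in a range of -0.032 to 0.029 with 1 embryo left out. That of Gnpnat1 1423157_at became -0.013 without exposed embryo 3 without NTD, in a range of -0.013 to 0.058. The causes were not tested.

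With the replicate number as a block, none of the 15 was called, 0 of the related genes (2 without it) and 0 of all probe sets (25 without it), and Gnpnat1 1423157_at was at -0.013. The numbers share no known origin, and same-numbered embryos of different groups correlated at -0.25 to 0.03 over 6 pairs, so they were not taken as pairs.

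Over all probe sets the 25 calls became 50 with the offset, 14 in the fit of 3 groups, 10 without a trend, 8 without a filter, 0 with Welch's test and 0 to 58 with 1 embryo left out. In simulated data of these group sizes limma called 63 of 100 changes of 1 on the log2 scale, and smaller ones were not simulated.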
